A study of Rattus norvegicus with 23 samples.

Results

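The wall of the pulmonary artery (PA) was compared with the working myocardium of both ventricles (V) in the rat heart. The comparison used the 4 arrays labeled pulmonary artery and the 7 labeled ventricle, 4 of the left (LV) and 3 of the right (RV), of 23 arrays from 6 regions of the heart and great vessels. Genes entered it by 1 rule: a gene had to be well above background, the scanner software's call for a spot brighter than its surroundings, on every PA array or on every V array. Of 16538 named genes on the array, 12359 met the rule, 10945 of them on both sides, 876 through PA alone and 538 through V alone. A gene that entered through 1 side alone was selected for a signal on that side, which favors a difference in that direction without fixing it. Counts over gene lists hold such genes, so they describe the tissues and are not given as support for a direction.

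The animals were 12 male Wistar rats aged 8 to 11 weeks, untreated and of 1 genotype as far as the sources state. All regions were dissected on ice under perfusion of a calcium-free, heparinized solution, and surrounding fat and nerve tissue was trimmed. RV was the free wall, and an LV mass was cut into 3 pieces, so that LV samples may share a heart. The 12 rats served all 23 arrays, with 2 rats needed for each sample of the sinoatrial node (SA), so PA, LV and RV samples may share rats too. The labels do not say which samples came from separate animals, and the comparison treated all samples as separate. P-values then measure only the spread between these samples. Single-color Agilent arrays measured the RNA: the level of a gene is log2(normalized signal + 1) of its brightest probe, and a difference is always PA minus V on that log2 scale.

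The wall of a large artery is built of smooth muscle cells between sheets of elastic fibers, with a thin endothelium inside and connective tissue, fat, nerves and small vessels outside. Smooth muscle contracts with its own actin, myosin and calponin isoforms, under control of myosin light chain kinase and of receptors for circulating and local mediators. Ventricular myocardium consists by volume mostly of cardiomyocytes, striated cells packed with sarcomeres and mitochondria, which burn fatty acids, couple through gap junctions and release calcium from the sarcoplasmic reticulum at each beat. Capillaries, fibroblasts and pericytes lie between them. In bulk tissue, fewer cells of a type and less RNA per cell cannot be told apart, and this holds for every result below.

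Arrays agreed closely within each side. Spearman's correlation of levels over the genes tested was between 0.985 and 0.989 within PA, between 0.975 and 0.993 within V and between 0.822 and 0.862 across. Probes well above background made up a percent of 71.5 ± 8.10 (SD, n = 4) in PA and 70.3 ± 7.74 (SD, n = 7) in V (exact two-sided permutation test, p = 0.8). Both sides were present on all 3 slides and on both rows of arrays of a slide. The percent followed the row, at 72.7 to 79.1 on row 1 and 58.6 to 69.4 on row 2. The faintest level that counts as above background did too, at 4.19 to 4.48 on row 1 and 5.08 to 5.61 on row 2. PA replicates 2 and 4, LV replicates 2 and 4 and RV replicate 2 were on row 2. Single arrays stood apart for certain genes. PA replicate 2 was low in most sarcomere genes. PA replicate 1 carried atrial genes, with *Myl7*, the atrial regulatory light chain, at 14.88, 11.30, 11.70 and 10.39 on the PA arrays in the order of their replicate numbers, and *Mybphl*, a myosin-binding protein of the atria, at 10.28, 6.72, 7.26 and 6.13. RV replicate 2 was the highest V array for an atrial and a fat gene. *Mybphl* was at 9.09 and *Adipoq*, the fat hormone adiponectin, at 7.79, against 5.91 to 6.65 and 3.02 to 4.97 on the other V arrays. The normalized signal summed over the adipocyte markers did not set this array apart, at 51263 within a range of 48594 to 73581 over V. Defining markers of both tissues follow, from lists chosen with earlier results of these data known.

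At a limma adjusted p below 0.05, 4573 genes were higher in PA, 37.0% of those tested, and 4223 were lower, 34.2%. With a difference of at least 2-fold as well, 2139 were higher (17.3%) and 2285 lower (18.5%). A difference of at least 16-fold was met by 135 genes higher and 227 lower in PA. The median difference over all genes tested was 0.04. The share of a gene group is read against these percents. Of the genes that entered through PA alone, 533 were called higher and 1 lower, and of those through V alone, 473 were called lower and 0 higher (limma). The rest of both sets were not called, and since the rule favors these directions, nothing is read from the counts.

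Among genes well above background on all 11 arrays, *Ccn3* had the largest difference in favor of PA. *Ccn3* encodes a secreted matricellular protein, and its levels were 16.51, 16.44, 16.04 and 16.23 in PA and 6.79 to 8.34 (median 7.28) in V, a log2 difference of 8.78 (standard error 0.29, adjusted p = 1.3e-10). *Itga8*, the integrin alpha 8 subunit of smooth muscle and other mesenchymal cells, was at 16.35, 16.47, 16.22 and 16.46 in PA and 7.05 to 8.27 (median 7.87) in V, a log2 difference of 8.68 (standard error 0.26, adjusted p = 6.79e-11). *Frzb*, a secreted inhibitor of Wnt signaling, was at 16.80, 16.91, 16.65 and 16.64 in PA and 8.84 to 9.29 (median 8.90) in V, with the difference of 7.78 and a standard error of only 0.10. *Car3*, a carbonic anhydrase abundant in fat and slow muscle, was 7.14 higher, but its V levels ran from 4.71 to 10.77, the highest being RV replicate 2, and without that array the difference was 7.83. The others in the leading 12 were *Igfbp2*, a binding protein of insulin-like growth factors (7.13), *Actg2*, the enteric smooth muscle actin (7.06), the growth factor receptor *Fgfr2* (6.92), the sterol transporter *Abcg4* (6.91), *Tagln* (6.55), *Myh11* (6.51), *Vsig2* (6.36) and *Tpm2* (6.07). Of these, *Actg2*, *Tagln*, *Myh11* and *Tpm2* are parts or partners of the contractile filaments of smooth muscle.

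On the other side, *Rpl3l*, the ribosomal protein that replaces *Rpl3* in striated muscle, was at 7.11, 5.50, 6.57 and 7.78 in PA and 15.02 to 15.35 (median 15.11) in V, a log2 difference of -8.41 (standard error 0.32, adjusted p = 4.08e-10). *Myom2*, which ties thick filaments at the M-band, was at 8.42, 5.28, 7.63 and 7.63 in PA and 15.01 to 15.85 (median 15.59) in V, a log2 difference of -8.24 (standard error 0.46, adjusted p = 1.21e-08). Genes of both sets were chosen among those whose groups do not overlap, so the separation is part of the choice. *Tmem179*, a membrane protein, had the smallest standard error of these 12, at 7.80, 7.59, 7.36 and 7.54 and 14.85 to 15.14 (median 15.01), a difference of -7.42 with a standard error of 0.09. *Ckmt2*, the mitochondrial creatine kinase of striated muscle, differed by -8.03, *Fabp3*, the fatty acid carrier of the cardiomyocyte, by -7.84, and *Myl3*, the ventricular essential light chain, by -7.78. Others among the 12 were the developmental myosin *Myh8* (-8.33), the alpha tubulin *Tuba8* (-8.20), the muscle mutase *Pgam2* (-7.72), *Myl4*, the atrial essential light chain (-7.45), and *Asb11* (-7.40). *Myh8*, *Myl4* and the actin genes have close relatives that are abundant here, and a probe that binds a relative cannot be told apart from the gene in these values.

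**Figure D1:**
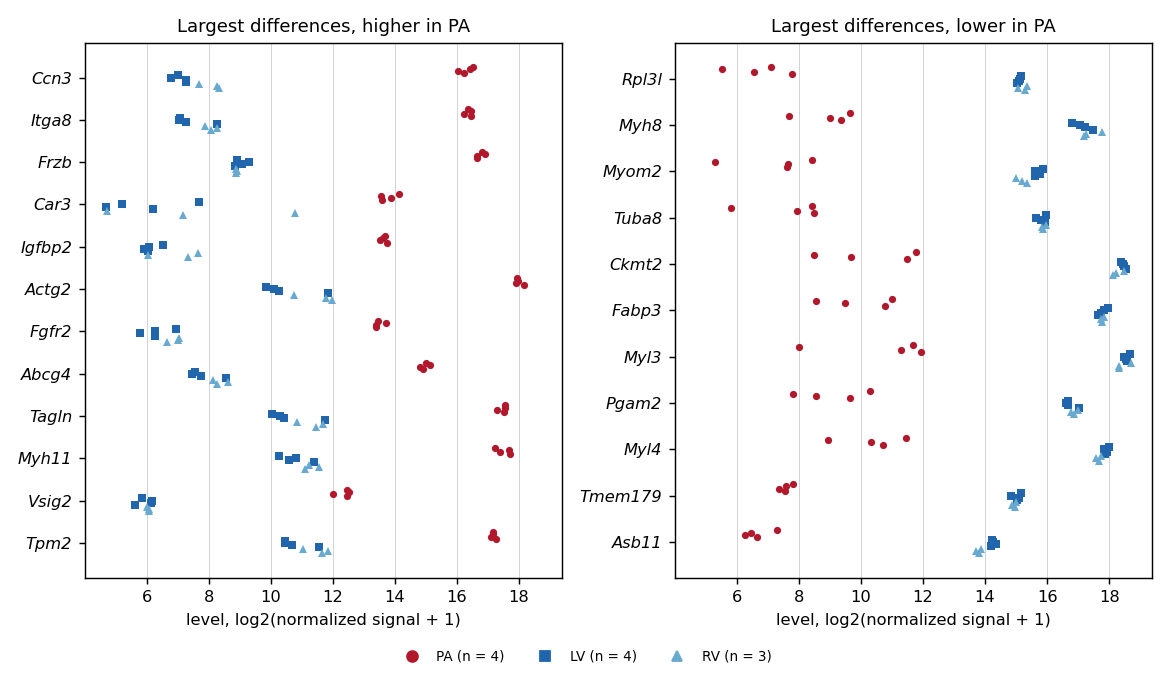
Level of genes with the largest difference in each direction, 12 higher and 11 lower in PA, as log2(normalized signal + 1) on the horizontal axis, with 1 point for each array (4 PA, 4 LV, 3 RV). The genes were chosen among those whose PA and V levels do not overlap. PA points of the genes lower in PA are spread over up to several units, as for *Ckmt2* from 8.47 to 11.77, whereas PA points of the genes higher in PA lie close together.

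Of the genes called, some were well above background on every array of 1 side and on none of the other, 44 of them in PA and 56 in V, so that only a lower bound of the fold can be given. In such a bound, the dim side is raised on each array at least to the faintest signal that still counts as above background there. Genes that only some arrays of a side measured above background keep their difference, and for those that this changed most the value with the dim arrays raised in the same way is given beside it. *B3gat2*, a glucuronyltransferase of glycan synthesis, was at 11.19, 11.51, 11.09 and 11.17 in PA, at least 86.5-fold higher than in V (adjusted p = 3.39e-08). *Lrrtm3*, a leucine-rich membrane protein, was at least 38.8-fold higher, the calmodulin-like *Calml3* at least 28.5-fold, *Rspo3*, a secreted enhancer of Wnt signaling, at least 24.5-fold, the cation transporter *Slc22a2* at least 22.5-fold and *Rimklb* at least 19.7-fold. In V, *Styxl2*, a pseudophosphatase of striated muscle, was at least 44.7-fold higher than in PA, the uncharacterized *LOC102554507* at least 40.4-fold and *Cxcl11*, a chemokine that draws T cells, at least 38.5-fold. *Cavin4*, the caveolar coat protein of muscle, was at least 33.3-fold higher in V, *Fsd2* at least 27.9-fold and *Fam81a* at least 20.6-fold. *Cxcl11* and *Fam81a* were low in LA as well, with means of 6.32 and 4.23 there, whereas *Styxl2* had a mean of 10.47 in LA and *Fsd2* of 9.33.

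The contractile apparatus of smooth muscle was higher in PA throughout. All 15 listed genes were tested and all 15 were called higher and at least 2-fold, with a median difference of 4.77. *Cnn1*, calponin, which binds actin and restrains myosin, had the largest, at 13.34, 13.34, 12.83 and 13.29 in PA and 4.55 to 6.17 (median 5.37) in V, a log2 difference of 7.77 (standard error 0.28, adjusted p = 2.76e-10), although only 6 of the 7 V arrays had it well above background. *Acta2*, smooth muscle alpha actin, was at 16.05, 16.11, 15.87 and 16.20 in PA and 10.71 to 11.08 (median 10.81) in V, a difference of 5.17. *Myh11*, the smooth muscle myosin heavy chain, was at 17.24, 17.67, 17.40 and 17.70 in PA and 10.26 to 11.56 (median 11.11) in V. No group overlapped for these genes. The share of all genes tested without overlap is not given, so a lack of overlap does not set a gene apart, in this list or below. The light chain *Myl9* was higher by 4.50, its kinase *Mylk* by 4.46, leiomodin *Lmod1* by 4.77, caldesmon *Cald1* by 4.12 and synaptopodin 2 *Synpo2* by 4.44. *Myocd*, the coactivator of serum response factor that drives smooth muscle and cardiac genes alike, differed least, at 10.67, 11.36, 11.40 and 11.52 in PA and 9.74 to 10.21 (median 10.01) in V, a log2 difference of 1.25 (standard error 0.15, adjusted p = 1.51e-05). V itself differed among its arrays in this list: *Actg2* was at 9.83, 10.09, 10.26 and 11.86 in LV and at 10.77, 11.77 and 11.97 in RV.

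The cardiac sarcomere gave the opposite picture. Of 20 listed genes, 16 were named on the array, all 16 were tested and all 16 were called lower in PA by at least 2-fold, with a median difference of -6.06. The smallest and the largest difference were far apart. *Mybpc3*, cardiac myosin-binding protein C, was at 8.94, 4.25, 7.95 and 8.09 in PA, not well above background on replicate 2, and 15.41 to 15.85 (median 15.72) in V, a log2 difference of -8.34 (standard error 0.68, adjusted p = 3.52e-07). *Myl2*, the ventricular regulatory light chain, was at 13.06, 9.44, 12.99 and 13.61 in PA and 18.76 to 19.22 (median 19.06) in V, a log2 difference of -6.74 (standard error 0.62, adjusted p = 1.11e-06). Cardiac troponin I and C, *Tnni3* and *Tnnc1*, were lower (log2 differences of -7.18 and -7.19), as was cardiac troponin T, *Tnnt2* (-4.37). *Myh7*, the slow myosin heavy chain, differed by -5.66 and *Myh6*, the fast one, by -4.17. At the other end stood *Actc1*, cardiac alpha actin, at 16.71, 16.62, 16.43 and 16.68 in PA and 18.85 to 19.40 (median 19.19) in V, a difference of -2.54, and *Tpm1*, tropomyosin 1, which smooth muscle also makes, at 17.01, 17.14, 17.14 and 17.26 and 18.13 to 18.54 (median 18.24), a difference of -1.16.

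Within PA, the sarcomere genes fell into different patterns by array. On PA replicate 2, 10 of the 16 were lower than the mean of the other 3 PA arrays by a log2 difference of 1 or more, against 101 of the 12359 genes tested (0.817%). The gap was -4.08 for *Mybpc3*, -3.78 for *Myl2* and -3.63 for *Myl3*. It was 0.01 for *Actc1*, 0.01 for *Tpm1* and 0.03 for myomesin 1, *Myom1*. No gene of the smooth muscle list had such a gap, and the median gap there was 0.11. Without PA replicate 2, the sarcomere list had a median difference of -5.56 and 16 of the 16 were called lower. Summed over the 9 ventricular cardiomyocyte markers, the normalized signal was 128782 to 209509 in PA and 2552080 to 3395170 in V. Of these 9 markers, 7 were well above background on all PA and V arrays, and the part of heart muscle in the other results was not tested.

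**Figure D2:**
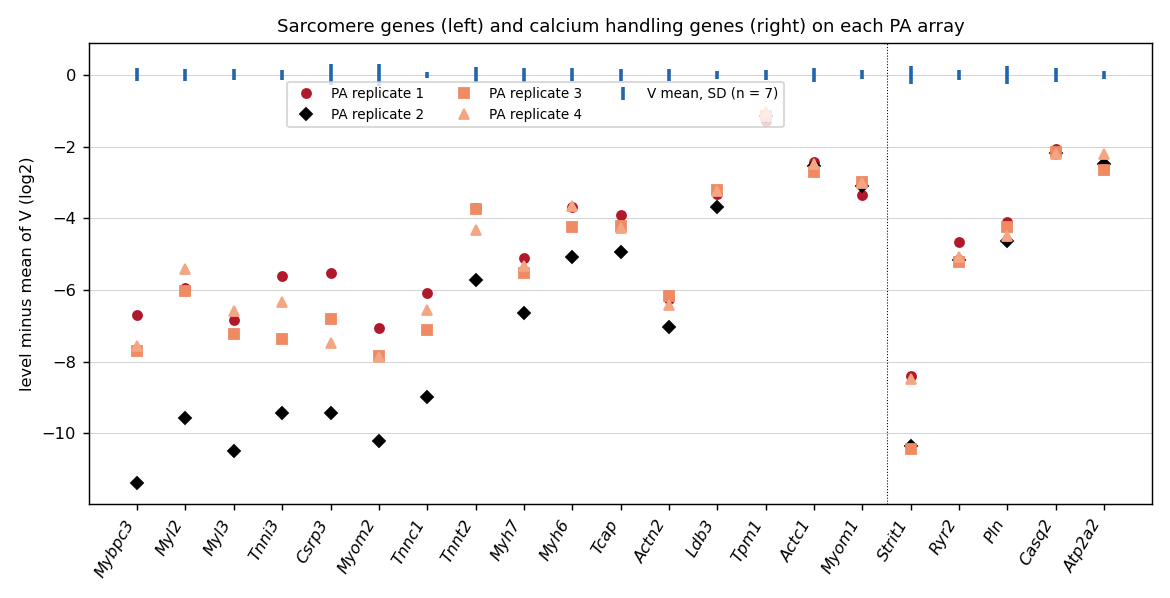
Level on each PA array minus the mean of V (log2, vertical axis) for the 16 sarcomere genes and 5 genes of calcium handling, with the SD of V as bars at 0. PA replicate 2 (black) lies below the other PA arrays for the genes at the left, by -4.08 for *Mybpc3*, and among them for *Tpm1*, *Actc1* and *Myom1*.

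Promoters of the genes lower in PA are shown where a motif of a muscle factor lies close to the start of the gene. The motifs are those of MEF2, which activates muscle genes, and the CArG box, bound by serum response factor. Both were searched by their consensus of 10 letters on both strands, in the window from 250 bases before to 50 bases after the start in RefSeq (build GRCr8). The window is known here for 10115 of the genes tested, and 2.0% of these hold a MEF2 motif and 1.305% a CArG box. Among the 11 sarcomere genes with a window, *Mybpc3* holds a MEF2 motif and *Actc1*, *Ldb3* and *Myl3* a CArG box. *Cox6a2*, the respiratory chain subunit with the largest difference, holds a MEF2 motif as well. The motif is in capitals in the 4 windows below, and *Cox6a2* and *Ldb3* lie on the minus strand.
*Cox6a2* chr1:192219667-192219966 (- strand, MEF2 site): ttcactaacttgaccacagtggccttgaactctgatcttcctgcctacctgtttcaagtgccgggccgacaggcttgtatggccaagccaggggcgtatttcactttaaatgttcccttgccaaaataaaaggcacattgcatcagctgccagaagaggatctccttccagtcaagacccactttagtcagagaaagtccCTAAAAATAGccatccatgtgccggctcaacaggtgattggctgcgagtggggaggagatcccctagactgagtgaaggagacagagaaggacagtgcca
*Mybpc3* chr3:97550811-97551110 (+ strand, MEF2 site): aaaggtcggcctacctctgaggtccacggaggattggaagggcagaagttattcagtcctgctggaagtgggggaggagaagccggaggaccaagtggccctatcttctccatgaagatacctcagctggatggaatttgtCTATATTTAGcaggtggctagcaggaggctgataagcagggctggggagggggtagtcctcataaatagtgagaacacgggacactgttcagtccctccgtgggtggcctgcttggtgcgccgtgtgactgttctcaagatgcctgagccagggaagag
*Myl3* chr8:119616844-119617143 (+ strand, CArG box): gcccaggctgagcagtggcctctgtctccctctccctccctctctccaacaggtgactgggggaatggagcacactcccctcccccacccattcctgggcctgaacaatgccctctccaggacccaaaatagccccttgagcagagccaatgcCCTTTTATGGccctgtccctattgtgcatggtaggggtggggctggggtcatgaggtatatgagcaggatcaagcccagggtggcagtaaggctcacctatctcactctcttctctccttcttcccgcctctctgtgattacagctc
*Ldb3* chr16:9924630-9924929 (- strand, CArG box): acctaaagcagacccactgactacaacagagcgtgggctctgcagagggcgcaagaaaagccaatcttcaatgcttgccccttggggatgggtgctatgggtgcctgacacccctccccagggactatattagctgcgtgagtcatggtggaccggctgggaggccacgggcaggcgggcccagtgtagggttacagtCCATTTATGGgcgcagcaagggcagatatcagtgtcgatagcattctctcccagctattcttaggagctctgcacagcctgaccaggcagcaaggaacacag
Of the 100 genes with the largest difference toward V, 74 have a window, and 14 of them (18.9%) hold a MEF2 motif and 3 (4.05%) a CArG box. Of the 100 with the largest difference toward PA, 68 have a window, of which 2 hold a MEF2 motif and 0 a CArG box. The 10 windows of the smooth muscle list hold neither, which says only that these letters are not in these windows. These sets were taken from the same differences, so the shares are descriptions, and a match is not a binding site.

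Many proteins of muscle and metabolism come in related forms, and pairs were listed with 1 member taken as the striated one and 1 as the other. The assignment is not strict. An other member can also be made in striated muscle, as *Tnni1* is, and a striated member elsewhere, as *Tpm1* is. Of 28 such pairs, both members were tested in 26. The striated member was called lower in PA in all 26, with a median difference of -4.55. The other member was called higher in 13, lower in 9 and neither in 4, with a median of 0.36. Several contractile proteins stood at opposite ends. For the myosin light chain kinases, *Mylk3* was lower (a log2 difference of -5.01) and *Mylk* higher by 4.46. For the alpha-actinins, which anchor actin, *Actn2* differed by -6.47 and *Actn1* by 4.80. For the tropomyosins, *Tpm1* differed by -1.16 and *Tpm2* by 6.07, and for the integrins that hold muscle to matrix, *Itga7* by -1.49 and *Itga8* by 8.68. The pores of the ATP-sensitive potassium channel differed in the same way, *Kcnj11* by -6.87 and *Kcnj8*, the vascular pore, by 1.42. Both members were lower for troponin I, *Tnni3* by a difference of -7.18 and *Tnni1*, the slow skeletal form and thus itself of striated muscle, of -2.78.

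Among enzymes, the other member differed little or did not pass the threshold in some pairs. In others it was called lower too, as for lactate dehydrogenase *Ldha* (-1.59), enolase *Eno1* (-1.18), creatine kinase *Ckb* (-1.06) and glycogen phosphorylase *Pygb* (-0.62). The phosphofructokinase *Pfkp* was higher (0.57). Phosphoglycerate mutase *Pgam2* was at 10.28, 7.82, 8.56 and 9.64 in PA and 16.60 to 17.04 (median 16.76) in V, whereas *Pgam1* was at 13.89, 13.89, 13.59 and 13.79 and 13.54 to 14.08 (median 13.76), a difference of -0.01 (adjusted p = 0.919). *Cox6a2* was at 13.67, 10.23, 12.90 and 13.04 in PA and 18.67 to 19.12 (median 18.95) in V, whereas *Cox6a1* was at 17.29, 17.46, 17.07 and 17.17 and 17.26 to 17.65 (median 17.47), a difference of -0.20 (adjusted p = 0.0739). The groups overlapped for *Pgam1* and *Cox6a1* and not for *Pgam2* and *Cox6a2*. For carnitine palmitoyltransferase, which admits fatty acids to the mitochondrion, *Cpt1b* differed by -5.41 and *Cpt1a* by 0.68. Only for the adenine nucleotide translocator was the other member, *Slc25a5*, the general form, further below 0 (-3.48) than *Slc25a4*, the muscle form (-2.10). *Pdlim7*, paired with *Ldb3*, was lower (-0.46), but by the mean of its 2 probes in place of the brighter it was higher.

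**Figure D3:**
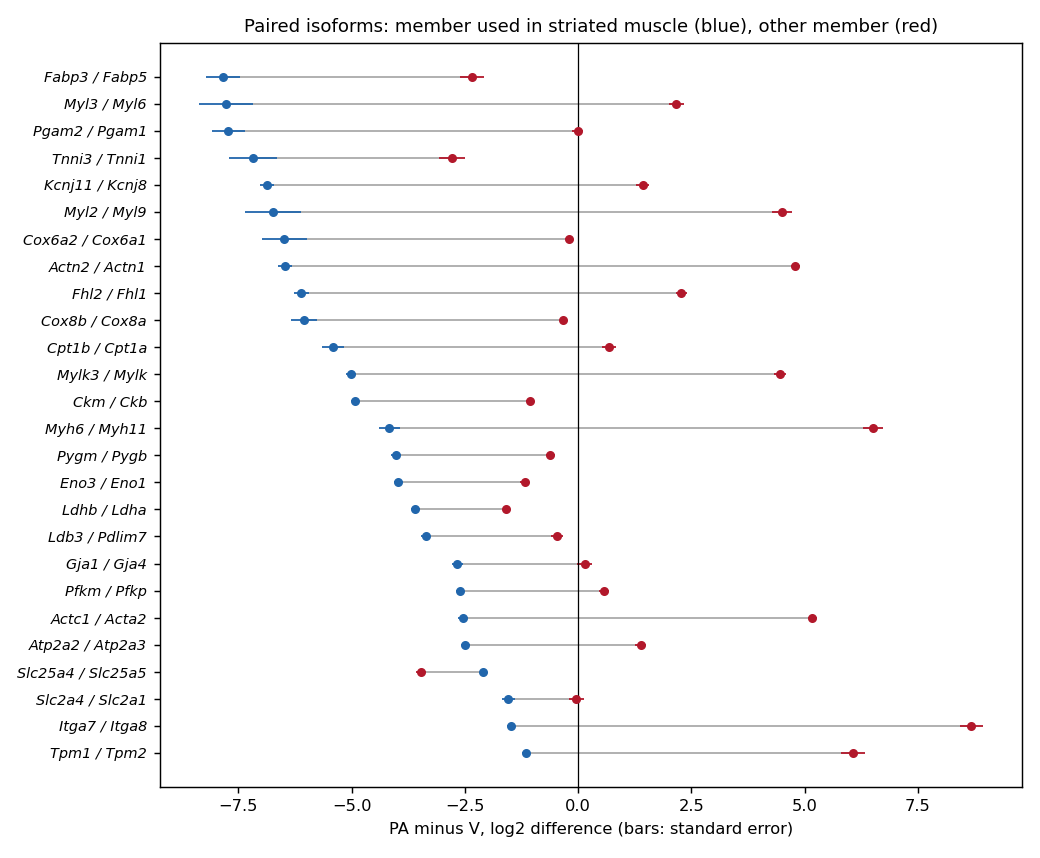
Log2 difference PA minus V (horizontal axis, bars are standard errors) of both members of the 26 isoform pairs tested. The member listed as the striated one is in blue and the other in red. All blue points lie left of 0, and the red point is right of the blue one in each pair but *Slc25a4* and *Slc25a5*.

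Genes of mitochondrial energy supply were lower in PA almost without exception. All 25 genes of fatty acid uptake and oxidation were called lower, each by at least 2-fold, with a median difference of -3.22. *Fabp3* led at 10.99, 8.53, 9.49 and 10.78 in PA and 17.65 to 17.95 (median 17.77) in V, a log2 difference of -7.84 (standard error 0.38, adjusted p = 3.05e-09), and *Acadm*, the medium-chain dehydrogenase, differed least, by -2.74. *Lpl*, the lipase that frees fatty acids from lipoproteins, differed by -5.18 and their transporter *Cd36* by -3.19. All 19 genes of the tricarboxylic acid cycle were lower, from -4.01 for the isocitrate dehydrogenase subunit *Idh3b* to -1.32 for *Suclg2*, the GTP-forming succinyl-CoA ligase subunit. Of 77 subunits of oxidative phosphorylation tested, 72 were lower, 71 of them by at least 2-fold, and 1 was higher, with a median of -2.40.

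The respiratory chain was not lowered evenly. *Cox6a2* and *Cox8b*, the cytochrome oxidase subunits of heart and skeletal muscle, were lower (log2 differences of -6.49 and -6.06). Most general subunits were lower by between 1 and 4, for example *Ndufs1* of complex I (-3.86), *Uqcrfs1* of complex III (-3.71), *Cox4i1* of complex IV (-1.78) and *Atp5f1b* of the ATP synthase (-3.14). *Cox8a*, the general partner of *Cox8b*, was lower by little (-0.33), and its sign turns under another scaling of the arrays. *Cox4i2*, the subunit known from lung and smooth muscle, was at 12.51, 12.51, 12.11 and 12.19 in PA and 12.08 to 12.55 (median 12.30) in V, a difference of 0.02 (adjusted p = 0.902). The higher one was *Ndufa10*, by 0.66, a call that was lost against RV alone, where the difference was 0.67, whereas its close relative *Ndufa10l1* was lower (-2.26). PA replicate 2 was low for *Cox6a2*, by -2.97, as for the sarcomere genes, whereas its gap over all 77 subunits had a median of -0.08. In glycolysis, 18 of 25 genes were lower and 4 higher. *Aldoc*, an aldolase, was higher by 3.76, the glucose transporter *Slc2a3* by 1.19, *Eno2* by 0.69 and *Pfkp* by 0.57.

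**Figure D4:**
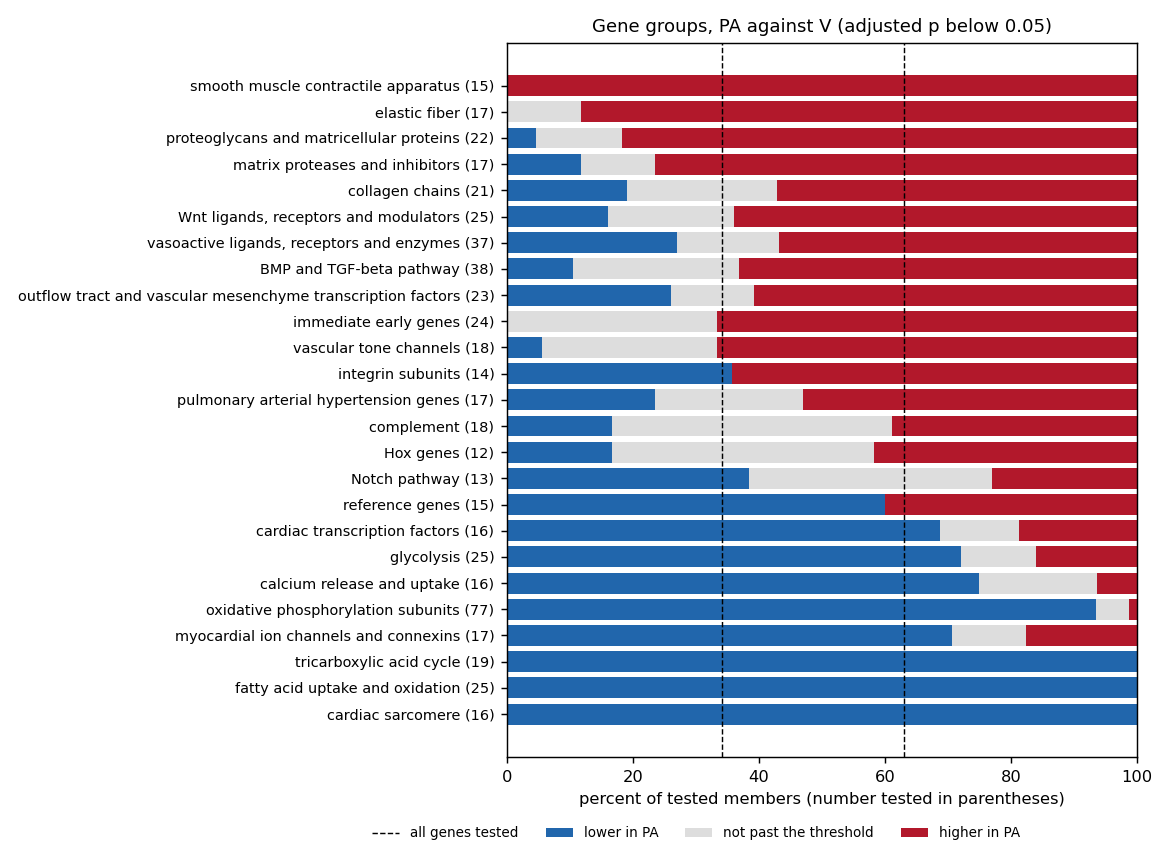
Percent of the tested members of each of 25 gene groups that were lower in PA (blue), not past the threshold (gray) or higher in PA (red) at a limma adjusted p below 0.05. Dashed lines mark the same shares over all genes tested, 34.2% lower and 37.0% higher. The smooth muscle group is red throughout, and the sarcomere, fatty acid and tricarboxylic acid groups are blue throughout.

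Genes of calcium release and uptake were mostly lower in PA, 12 of 16 tested, with 1 higher and a median difference of -2.11. *Strit1*, a small membrane protein that stimulates the calcium pump, was at 5.0, 3.04, 2.96 and 4.90 in PA, well above background on 1 of the 4, and 13.02 to 13.73 (median 13.42) in V, a log2 difference of -9.41 (standard error 0.38, adjusted p = 7.51e-10), or -8.42 with dim arrays raised. The pump's inhibitor phospholamban, *Pln*, was at 13.54, 13.0, 13.40 and 13.15 in PA and 17.30 to 17.92 (median 17.76) in V, a difference of -4.37. The release channel *Ryr2* differed by -5.04, calsequestrin 2, *Casq2*, by -2.16, and the pump itself, *Atp2a2*, by -2.49. These were even over the PA arrays, with *Casq2* at 14.04, 13.92, 13.95 and 13.90, and PA replicate 2 was not lower by 1 or more in any of *Pln*, *Ryr2*, *Casq2* and *Atp2a2*. The L-type channel pore *Cacna1c*, shared by both muscles, was at 10.57, 11.21, 11.09 and 11.13 in PA and 10.99 to 11.52 (median 11.23) in V (difference -0.23, adjusted p = 0.19), and its accessory subunit *Cacna2d1* was higher by 1.22.

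Myocardial ion channels and connexins were lower for 12 of 17 genes and higher for 3. *Kcnip2*, partner of the transient outward channel, was at 11.05, 10.37, 10.93 and 11.29 in PA and 17.40 to 17.97 (median 17.68) in V, a log2 difference of -6.78 (standard error 0.16, adjusted p = 1.78e-11). *Kcnj11* differed by -6.87, the ventricular connexin 43, *Gja1*, by -2.66, and *Kcnj3* by -3.06. *Kcnh2*, the delayed rectifier of the heart, was on the other side, higher in PA by 1.67. Channels of vascular tone were higher in PA for 12 of 18 and lower for 1. The lower count was 3 without PA replicate 2 and 2 without PA replicate 1, LV replicate 3 or RV replicate 2, and 3 under quantile scaling or with slide as a block. *Kcnmb1*, the subunit that tunes the large calcium-activated potassium channel in smooth muscle, was at 11.83, 11.99, 11.57 and 11.79 in PA and 5.77 to 6.87 (median 6.32) in V, a log2 difference of 5.44 (standard error 0.18, adjusted p = 1.22e-10), whereas the pore *Kcnma1* was higher by only 0.70. The calcium-activated chloride channel *Ano1* was higher by 3.35, the inositol trisphosphate receptor *Itpr1* by 2.77, the store sensor *Stim1* by 1.76 and *Trpc6* by 1.27. *Orai1*, the pore that *Stim1* opens, was lower (-0.57).

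Elastic fiber genes were mostly higher in PA, and collagen chains went both ways. Of 17 elastic fiber genes tested of 20 listed, 15 were higher and 0 lower by limma (0 lower at an unadjusted p below 0.05), with a median difference of 2.62. *Eln*, elastin, was at 17.71, 18.04, 18.25 and 18.16 in PA and 12.04 to 13.23 (median 12.49) in V, a log2 difference of 5.50 (standard error 0.20, adjusted p = 2.98e-10). The latent TGF-beta binding protein *Ltbp2* was higher by 5.43, fibulin 5, *Fbln5*, which guides elastin assembly, by 4.44, fibulin 4, *Efemp2*, by 3.53, the cross-linking oxidase *Loxl1* by 2.79 and fibrillin 1, *Fbn1*, by 2.62. *Fbn2* (0.29) and *Efemp1* (0.35) did not pass the threshold. Of 21 collagen chains, 12 were higher and 4 lower, and the lower count was 2 within slide 3 and 1 within slide 2. The fibrillar chains *Col1a1*, *Col1a2* and *Col3a1* were higher by 2.68, 1.89 and 2.32, and *Col18a1*, a basement membrane chain, led at 14.88, 15.02, 14.44 and 14.77 in PA and 9.69 to 10.14 (median 9.90) in V. *Col5a3* was lower (-1.63, a call lost within slide 3 at -1.32) and *Col4a4* (-1.02).

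Of 22 proteoglycans and matricellular proteins, 18 were higher and 1, the thrombospondin *Thbs1*, lower (-1.76, or -1.27 with dim arrays raised). *Spp1*, osteopontin, was at 12.79, 12.46, 11.68 and 12.06 in PA and 5.26 to 9.50 (median 5.92) in V, where LV replicate 4 was highest, a difference of 5.80. The small leucine-rich proteoglycans fibromodulin *Fmod* and *Prelp* were higher by 4.58 and 3.95 and biglycan *Bgn* by 3.42, whereas decorin *Dcn* did not pass the threshold, at 16.12, 15.91, 15.53 and 15.74 in PA and 15.61 to 16.06 (median 15.80) in V. *Comp*, a matrix protein of cartilage, tendon and vessel wall, was higher by 4.52, while *Sox9*, the master factor of cartilage, did not differ past the threshold (-0.35) and *Col2a1* neither (0.26). Of 17 matrix proteases and inhibitors, 13 were higher and 2 lower. They were led by the aggrecanase *Adamts1* (3.83) and the metalloprotease *Mmp23* (3.27).

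Transcription factors separated along the same line. Of 16 cardiac factors tested, 11 were lower in PA and 3 higher. *Irx4*, which marks ventricular identity, was at 6.09, 4.74, 5.19 and 4.85 in PA, well above background on 2 of the 4, and 12.21 to 12.62 (median 12.37) in V, a log2 difference of -7.17 (standard error 0.21, adjusted p = 6.12e-11). *Nkx2-5*, a master factor of heart muscle, was lower (-5.10), the stretch-responsive cofactor *Ankrd1* (-6.81), *Gata4* (-2.11) and *Tbx20* (-2.0, or -1.51 with dim arrays raised). *Gata6*, made in both heart and vessel, was higher by 0.59, and *Hey2*, a Notch effector of arteries and ventricle, by 2.69. *Mef2a* and *Mef2d* were lower (-0.67 and -0.66).

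Factors of the outflow tract and of vascular mesenchyme were higher in PA for 14 of 23 and lower for 6. *Osr1* was at 12.08, 12.19, 11.99 and 12.37 in PA and 5.87 to 6.81 (median 6.33) in V, a log2 difference of 5.84 (standard error 0.16, adjusted p = 4.02e-11). *Isl1*, which marks the second heart field that forms the outflow tract, was at 8.58, 8.74, 8.89 and 8.59 in PA and on no V array well above background, at least 14.8-fold higher. *Foxc2* and *Foxc1*, needed for the arch arteries and outflow tract, were higher by 4.78 and 3.64, *Prrx1* by 4.16, *Tbx18* by 3.42, *Tbx1* by 2.73 and *Twist2* by 2.58 (1.90 with dim arrays raised). On the other side, *Tcf21*, a factor of cardiac fibroblasts, was lower (-1.53) and *Hand2* (-0.67).

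Among vasoactive ligands, receptors and enzymes, 21 of 37 tested were higher in PA and 10 lower. The natriuretic peptides were the low end. *Nppb* was at 8.02, 4.54, 5.53 and 4.92 in PA, 16.47, 15.88, 17.01 and 15.82 in LV, and 13.29, 12.87 and 12.96 in RV, a log2 difference of -9.15 (standard error 0.96, adjusted p = 3.43e-06), or -8.84 with dim arrays raised, as only 2 of the 4 PA arrays were well above background. *Nppa* was at 11.64, 8.09, 7.97 and 7.16 in PA, 14.55 to 16.26 in LV and 10.38 to 11.80 in RV. PA replicate 1 reached the RV arrays, so that the groups overlapped, and the difference was -4.89 with a standard error of 1.34, or -5.86 without that array. *Npr1*, their receptor, was higher in PA by 1.25, and the clearance receptor *Npr3* lower (-1.79).

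In the cyclic GMP pathway, through which nitric oxide relaxes smooth muscle, some of the genes named by the rule were higher and others were not. The soluble guanylate cyclase subunits *Gucy1a1* and *Gucy1b1* were higher by 2.86 and 2.64 and the kinase *Prkg1* by 2.54 (2.10 with dim arrays raised). *Pde5a*, the enzyme that degrades cyclic GMP, was at 12.95, 12.95, 12.79 and 13.43 in PA and 7.40 to 8.02 (median 7.49) in V, a log2 difference of 5.38 (standard error 0.16, adjusted p = 7.02e-11). *Nos3*, the endothelial nitric oxide synthase, was at 11.05, 10.57, 11.26 and 10.998 in PA and 10.77 to 11.51 (median 11.32) in V, a difference of -0.25 (adjusted p = 0.186). Angiotensinogen *Agt* was higher by 4.81, its receptor *Agtr1a* by 2.22 and the converting enzyme *Ace* by 1.23. Of the serotonin genes, the transporter *Slc6a4* was higher by 3.44 and the receptor *Htr2b* by 3.59. The prostanoid genes *Ptgis* (3.23), *Ptgs1* (3.71) and *Tbxa2r* (3.67) were higher. Adrenergic receptors went both ways, with *Adra1d* higher by 2.73 and *Adra1a*, *Adra1b* and *Adrb1* lower (-2.60, -2.33 and -0.68). The endothelin receptors *Ednra* (0.11) and *Ednrb* (0.14) did not pass the threshold.

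Genes whose variants are linked to pulmonary arterial hypertension were spread around 0. Of 17 tested, 9 were higher and 4 lower (2 lower against RV alone), with a median difference of 0.41. *Bmpr2*, the receptor most often affected, was at 9.64, 9.86, 9.30 and 9.75 in PA and 9.64 to 10.05 (median 9.96) in V, a difference of -0.24 (adjusted p = 0.0955). The groups overlapped. *Kcna5* and *Kcnk3*, potassium channels of arterial smooth muscle, were higher by 1.68 and 0.77, *Cav1* by 1.47 and *Smad9* by 1.13. *Kdr*, the main receptor for vascular endothelial growth factor, was lower, at 10.98, 10.43, 10.75 and 10.36 in PA and 14.04 to 14.85 (median 14.22) in V, as was *Abcc8*, a sulfonylurea receptor (-3.93).

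In the BMP and TGF-beta pathway, 24 of 38 genes were higher in PA and 4 lower (1 lower against RV alone), with a median difference of 1.103. The ligand *Bmp3* was at 10.98, 11.18, 10.47 and 10.89 in PA and 2.20 to 4.49 (median 3.25) in V, a log2 difference of 7.63 (standard error 0.36, adjusted p = 2.86e-09). The receptor *Bmpr1b* was at 11.18, 11.45, 12.04 and 11.72 in PA and 2.20 to 5.21 (median 4.08) in V, a log2 difference of 7.60 (standard error 0.46, adjusted p = 2.65e-08). Each was well above background on 1 V array, and the groups did not overlap. With dim arrays raised to that faintest signal, the differences were 6.05 for *Bmp3* and 6.69 for *Bmpr1b*. Of the target genes, *Id4*, *Id2* and *Id3* were higher by 5.58, 2.43 and 1.53, and *Id1* did not pass the threshold (0.07). *Inhba*, *Gdf10* and *Tgfb3* were higher by 3.67, 4.29 and 2.24, and *Tgfbr2*, the ligand-binding TGF-beta receptor, did not pass it (-0.02, adjusted p = 0.868). *Grem1*, a secreted BMP antagonist, was lower (-0.47).

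Of 25 Wnt genes, 16 were higher and 4 lower. Besides *Frzb* and *Rspo3*, the secreted *Sfrp4* was higher by 4.14 (3.31 with dim arrays raised), the receptors *Ror1* and *Fzd2* by 4.16 and 2.72, and *Axin2*, a target of the canonical pathway, by 2.52. *Wnt11* and *Fzd7* were lower (-1.63 and -1.55). In the Notch pathway, 3 of 13 were higher and 5 lower. The ligand *Jag1* was at 11.84, 11.98, 11.34 and 11.71 in PA and 9.13 to 10.06 (median 9.46) in V, a difference of 2.20, and its smooth muscle receptor *Notch3* did not pass the threshold (-0.10). The endothelial receptor *Notch4* was lower (-1.86) and *Nrarp* (-2.22).

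Markers of other cell types were read as lists. Of 13 endothelial markers tested, 10 were lower in PA and 1, *Plvap*, of fenestrated endothelium, higher by 1.04. *Pecam1*, common to all endothelium, was at 13.79, 12.68, 13.16 and 12.88 in PA and 13.22 to 13.48 (median 13.44) in V (-0.27, adjusted p = 0.171). The capillary list was lower for 9 of 10, with *Aqp7* at -5.33, *Car4*, a carbonic anhydrase of capillary surfaces, at -4.91, *Rgcc* at -4.03 and *Timp4* (-0.41) not past the threshold, and its summed signal was 21279 to 32662 in PA and 125006 to 206017 in V. Several of its genes, such as *Cd36* and *Fabp4*, are made by other cells too. The arterial list was higher for 4 of 10 and lower for 1 (2 without RV replicate 2), with connexin 40, *Gja5*, higher by 2.13. Of 9 pericyte markers, 3 were higher and 4 lower, among them *Vtn*, vitronectin, at 6.83, 6.51, 6.30 and 6.41 in PA and 12.54 to 12.89 (median 12.79) in V, and *Higd1b* (-3.74). *Pdgfrb* and *Cspg4*, shared with smooth muscle, were higher by 2.10 and 2.99. Of 10 fibroblast markers, 6 were higher and 3 lower, with *Pi16*, of adventitial fibroblasts, higher by 3.24 and *Pdgfra* lower (-0.99).

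Fat and nerve markers went both ways. Of 12 adipocyte genes 6 were higher in PA and 5 lower, and of 8 brown adipocyte genes 3 were higher and 4 lower. *Ucp1*, the uncoupling protein of brown fat, was at 11.14, 12.34, 13.23 and 13.33 in PA and 3.38 to 5.04 (median 4.46) in V, where 3 of the 7 arrays were well above background, a difference of 8.23, or 7.51 with dim arrays raised. *Adipoq* was at 11.63, 10.66, 11.50 and 11.37 in PA and 3.02 to 7.79 (median 4.77) in V, a difference of 6.58, or 7.09 without RV replicate 2 and 6.01 with dim arrays raised. The adipokine *Retn* was higher by 6.0, or 5.70 with dim arrays raised. *Ucp1*, *Adipoq* and *Retn* met the rule through PA alone. The lower ones, such as *Cox8b*, *Cpt1b*, *Ppargc1a*, *Lipe* and *Fabp4*, are abundant in heart muscle or its vessels too. Of 6 autonomic neuron markers tested of 15 listed, 5 were higher and 1 lower, with 3 higher against RV alone or when any one of PA replicates 2, 3 and 4, LV replicates 2 and 3 and RV replicates 2 and 3 was left out, and 3 of the 6 were well above background on all 11 arrays. *Stmn2*, of growing axons, was higher by 4.92 (4.55 with dim arrays raised) and *Npy* by 4.24, while *Dbh*, the enzyme of noradrenaline synthesis, was lower (-3.75). The summed signals were 23655 to 30763 in PA and 48594 to 73581 in V for the adipocyte list, 12256 to 26398 and 380718 to 519642 for the brown adipocyte list, and 4436 to 8632 and 1275 to 1713 for the neuron list. The part of these tissues in the other results was not tested.

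Markers of lung epithelium were not higher in PA. Of the 12 markers of lung epithelium, 6 were tested, 3 were lower in PA and 0 higher (limma, 0 higher at an unadjusted p below 0.05; 1 higher without LV replicate 1), and surfactant genes such as *Sftpb* and *Sftpd* did not meet the rule. The summed signal was 2367 to 2904 in PA and 3356 to 4322 in V. Of 9 mesothelial markers, 5 were higher and 1 lower, the lower one being *Wt1* (-3.19). This count fell to 3 higher without PA replicate 3, and it depended on the ventricle. Against LV alone 8 were higher, with a median difference of 2.68, and against RV alone 3, with a median of 0.28, and the summed signal of 5385 to 16282 in PA overlapped that of 4121 to 7281 in RV and not that of 1280 to 3123 in LV. Of 11 macrophage markers, 2 were lower, *Adgre1* (-1.18) and *Cd68* (-0.54), and 0 higher (limma, 0 higher at an unadjusted p below 0.05; 1 higher without RV replicate 2).

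Lymphocyte markers were lower in PA for 6 of 7 tested of 13 listed. Of the 7, *Nkg7*, *Ccl5*, *Cd4* and *Cd3d* were well above background on all 11 arrays, and the other 3 met the rule through V alone, which favors this direction. *Nkg7*, a granule protein of cytotoxic T and natural killer cells, was at 7.28, 6.67, 7.51 and 7.39 in PA and 11.97 to 12.46 (median 12.26) in V, a log2 difference of -5.01 (standard error 0.15, adjusted p = 8.47e-11). *Ccl5*, a chemokine of the same cells, was at 9.73, 9.29, 9.31 and 9.31 in PA and 13.73 to 14.47 (median 14.10) in V, a difference of -4.71, and *Cd3g* was lower (-3.74). *Cd8a* and *Cd2* were on no PA array well above background, and were at least 5.78-fold and 2.64-fold higher in V. The groups were far apart for *Nkg7* and *Ccl5*, on all slides. *Cd4* was at 7.37, 7.54, 7.72 and 6.95 in PA and 6.50 to 7.60 (median 7.43) in V (0.07, adjusted p = 0.798), and *Cd3d* was lower by little (-0.34). *Cd3e* and the B cell marker *Cd79b* were not well above background on every array of either side. The mean of *Nkg7* was 10.20 in LA, 8.13 in SA and 8.30 in PV. Of 7 mast cell markers, 5 were lower in PA and 0 higher (limma, 0 higher at an unadjusted p below 0.05).

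**Figure D5:**
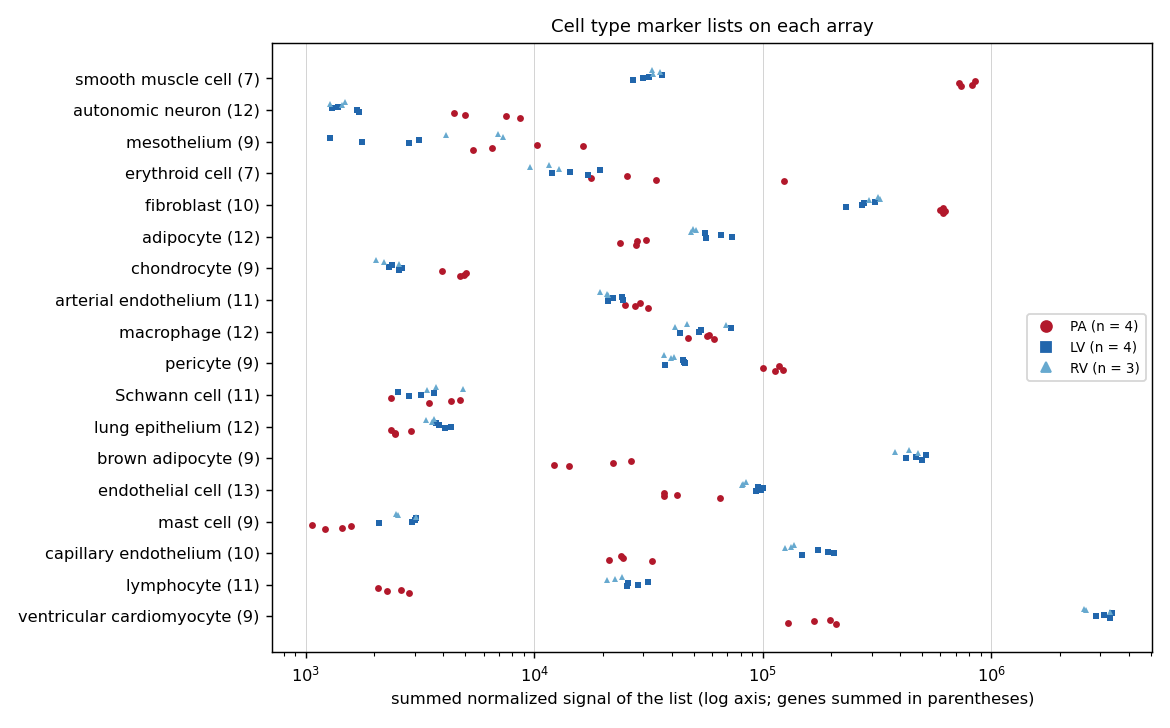
Summed normalized signal (log axis) of 18 marker lists on each of the 11 arrays, with lists ordered by their median difference. PA and V overlap for the macrophage, Schwann cell, mesothelium and erythroid lists and are apart for all the others, so separation is the general case here. A list's sum follows its brightest genes.

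Immediate early genes, which are switched on within minutes of a stimulus and of tissue handling, were higher in PA for 16 of 24 tested and lower for 0 by limma (0 lower at an unadjusted p below 0.05). *Fos* was at 10.11, 8.98, 10.73 and 11.78 in PA and 6.27 to 8.77 (median 7.44) in V, a log2 difference of 3.01 (standard error 0.55, adjusted p = 0.000367). PA replicate 2 was the lowest of the PA arrays. *Ptgs2*, the inducible cyclooxygenase, was at 6.91, 7.64, 7.27 and 8.26 in PA and on no V array well above background, at least 6.56-fold higher. *Nr4a3* and *Atf3* were higher by 2.63 and 2.03, whereas *Egr1* was at 9.62, 9.49, 9.59 and 10.05 in PA and 8.62 to 9.92 (median 9.28) in V (0.34, adjusted p = 0.202). The study's methods state that the tissues were dissected within 30 min once the heart was out, with no time given for PA or the ventricles, and the part of handling in these differences was not tested.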

How the data were processed

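Rat RNA was labeled with Cy3 and hybridized to Agilent SurePrint G3 arrays, and Agilent Feature Extraction 11.0.1.1 is named in the submitters' processing notes. The authors' deposited normalized intensities are linear signals, scaled per array by 1 factor (1.06 to 1.52 here) to an equal 90th percentile. They were used for the levels, and the scanner intensities, background-subtracted per the file headers, for calls above background and as an alternative. Of 45596 probes, 156 with a missing value were removed, and 21102 were named through RefSeq accessions. The highest probe of a gene on each array was taken, 1 was added and log2 taken. limma 3.58.1 in R 4.3.3 compared 4 PA with 7 V arrays with Benjamini-Hochberg adjustment over 12359 genes. Tested on simulated data with the same number of arrays, it recovered 79% of 100 genes changed by a log2 difference of 1 and 94% of 100 changed by 2, with 6 false calls. Only 200 of 12359 genes were changed there, with normal noise of equal spread on both sides, whereas 8796 were called in the data. These rates therefore do not carry over to the comparison.

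Genes were named by rule: the 12 largest differences in each direction among non-overlapping genes above background on all arrays, the 6 largest bounds in each direction, the extremes and defining members of each list, and the isoform pairs. *Myl7* and *Mybphl* were added after their values were seen, and some genes that the rule names are not reported here. Members, lists and motifs were chosen with earlier results of these data known. No spot was saturated (0 spots), the number of arrays limits the precision, and alternatives are given in the closing section. Python 3.11.15 with pandas 2.3.3, scipy 1.17.1 and matplotlib 3.10.9 was used for the tables and plots. The promoter windows are from RefSeq.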

Additional observations from a re-analysis of the deposited data

Results flagged for a closer look

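In 156 named genes, 282 sets of PA or V levels, all well above background, were examined for an array far from the rest of its group, and 19 (6.74%) held one, where chance marks about 1 in 20. Sarcomere genes on PA replicate 2 were the largest gaps in PA: *Myl2* was 9.44 against 12.99 to 13.61 and *Myl3* was 8.01 against 11.29 to 11.94. On the same array, *Scgb1a1*, a lung secretory protein, was 7.80 against 7.02 to 7.14. PA replicate 3 was lowest for *Cnn1* (12.83 against 13.29 to 13.34), *Tagln* (17.31 against 17.52 to 17.55), *Kcnj8* (13.99 against 14.41 to 14.46) and *Vsig2* (11.99 against 12.46 to 12.52), each of which was above all V arrays on that array too. PA replicate 1 was lowest for *Lrrtm3* (9.62 against 10.21 to 10.28) and *Mmp15* (13.82 against 14.05 to 14.07) and highest for *Nrarp* (7.98 against 7.27 to 7.38). PA replicate 4 was lowest for *Comp* (10.76 against 11.34 to 11.39) and highest for *Myl9* (17.64 against 17.45 to 17.46).

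Among the V arrays, RV replicate 2 was highest for *Hoxa2* (8.28 against 5.97 to 6.95) and *S100b* (8.19 against 6.25 to 6.75), a protein of glia and fat, both of which were higher in PA, and lowest for *Idh3b* (15.97 against 16.13 to 16.23) and *Slc25a4* (15.07 against 15.18 to 15.20), both of which were lower in PA. RV replicate 1 was highest for *Abcc8* (12.93 against 12.63 to 12.75) and lowest for *Cd4* (6.50 against 7.26 to 7.60), and LV replicate 4 was highest for *Spp1* (9.50 against 5.26 to 6.94). In each pair of values the level of the array comes first, followed by the range of the others of its group, all as log2(normalized signal + 1).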

How the results depend on the processing

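The 4 counts of the comparison were recomputed under 34 alternatives, and 2 counts moved by over 1.5 times, both within slide 2, where 1 PA array was set against 3 V arrays: 2385 genes were higher and 2438 lower, and the lone PA array was assumed to vary like V. Within slide 3, with 2 PA arrays against 3 V arrays, 4007 were higher and 3902 lower. Slide 1 held 1 array of each side and gave values without a test. With 1 array left out at a time, 4298 to 4575 genes were higher and 3964 to 4226 lower, and 2083 to 2160 and 2211 to 2339 by at least 2-fold. With slide as a block, 4592 were higher and 4256 lower, and with the slide row as a block, 4553 and 4171. The labels do not say what a shared replicate number means, and the deviations of same-numbered PA and V samples correlated between -0.18 and 0.21. With the replicate block, 4550 were higher and 4126 lower, 2168 and 2268 by at least 2-fold. The planned background correction needed a mean signal that was not used here, so normexp was run on the median signals, an alternative chosen after seeing the data, as was setting dim arrays to the lowest signal above background. Normexp gave 1615 genes at least 2-fold higher and 1779 lower. The scalings moved the median difference of all genes between 0.025 and 0.076.

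Of 145 named genes called in the comparison, 126 kept their direction and side of the threshold in all alternatives in which they were tested, and 19 lost the call in at least 1, of which all but 5 did so within slide 2 alone. *Cox8a*, at -0.33, turned to 0.0634 under quantile scaling and 0.0195 with normexp, and *Pdlim7*, at -0.46, turned to 0.973 with the mean of its probes. The cause was not tested. *Myl7*, *Col5a3* and *Ndufa10* lost the call within slide 3 or against RV alone. Of 2924 list counts recomputed, 109 moved by over 1.5 times, 26 within slide 2.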

Other observations

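Hox genes pattern the body axis and mark where a tissue's cells came from in the embryo. Of 25 on the array, 12 met the rule, 5 were higher in PA and 2 lower. The higher ones were *Hoxa2*, at 12.05, 11.92, 12.20 and 12.10 in PA and 5.97 to 8.28 (median 6.53) in V, a log2 difference of 5.36, *Hoxb3* (5.04), *Hoxb4* (3.28), *Hoxd9* (2.84) and *Hoxb5* (1.45, or 0.93 with dim arrays raised to the faintest signal above background), and the lower ones *Hoxb7* (-1.59) and *Hoxd1* (-0.69). Of 14 integrin subunits, 9 were higher and 5 lower. Besides *Itga8*, the subunit *Itga10* was higher by 2.36 and *Itgb1*, the partner of most alpha subunits, by 1.70, whereas *Itga6*, a laminin receptor, was lower (-3.36). Of 18 complement genes, 7 were higher and 3 lower. *C4a* was higher by 2.22, while *Masp1*, a protease of the lectin pathway, was lower (-3.09).

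All 15 genes commonly used as internal references differed between the tissues, 6 higher and 9 lower in PA. *Gapdh* was at 15.33, 15.38, 14.92 and 15.35 in PA and 17.70 to 18.13 (median 17.85) in V, a difference of -2.64, *Tfrc* was lower (-3.72) and *Actb* (-1.68), whereas *Ywhaz* was higher by 1.47 and *Ppia* by 0.96. The nearest to 0 was *Rplp0*, at 0.30. Of 6 erythroid markers, 3 were higher and 2 lower. *Hba-a1*, a globin chain of red cells, was at 16.89, 15.01, 14.04 and 14.59 in PA and 12.89 to 14.05 (median 13.34) in V, PA replicate 1 being highest. Of 10 Schwann cell markers, 4 were lower and 1, *S100b*, higher by 3.67 (2 higher without PA replicate 4).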
